A study of Carica papaya with 15 samples.

Results

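The genes described here had higher levels in papaya pulp 12 h after ethylene was removed than just after the exposure. The members were 75 of the 20332 genes in the expression table. They were chosen on the measured values, as genes with a mean of at least 10 over the 15 libraries. Their T24h mean on the scale of log2(normalized count + 1) was at least 1.5 above the T12h mean and at least 1 above both the C0h mean and the mean of C24h A and C24h C, and their lowest T24h library stood above the highest T12h library. *PLP9*, which codes for a patatin-like lipid hydrolase, was the marker of the module and had the largest T24h minus T12h difference of the 75.

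The fruit were cv. "Golden" papayas (*Carica papaya*) bought before the climacteric. In T24h the fruit received ethylene at 100 ppm for 12 h and then stood without the gas until 24 h. In T12h they were sampled after the same 12 h exposure and the venting with air that followed it. In C0h, C12h and C24h they received no ethylene and were sampled at 0, 12 and 24 h. Each group held 3 libraries, called A, B and C after the 3 harvests, and each library was made from pooled pulp of at least 5 fruit, so that the spread is among pools and says nothing of single fruit. Recovered reads in 13 of the libraries ranged from 7999275 to 12542678. All values below are normalized counts, meaning read counts per gene divided by the DESeq2 size factor of the library. They are not corrected for gene length. The sums of normalized counts were not equal, with 1.13e+07 to 1.33e+07 in T24h and 8.57e+06 to 9.11e+06 in C12h.

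Papaya is a climacteric fruit, in which a pulse of ethylene starts ripening and the fruit then makes ethylene of its own. Ripening pulp remodels its cell walls, turns its green plastids into chromoplasts and builds carotenoids, and new plastid membranes and lipid stores need fatty acids. In plants these acids are made inside the plastid, from pyruvate and acetyl-CoA, by an acetyl-CoA carboxylase and a set of enzymes that work on an acyl carrier protein.

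One pair of libraries bears on every value. The control library C24h B and the treated library T24h C, which carry different group and harvest labels, were closer to each other than any other pair of the 15, with a median absolute log2 difference of 0.1101 over 11163 genes, against at least 0.176 in the other 104 pairs. Over 13559 genes, the chi-square of their recovered reads was 2.05 per degree of freedom, against 12.2 to 238 in the other 77 pairs that could be compared. Their difference was thus larger than counting error. For 72 of the 75 late genes they lay within 0.5 on the log2 scale, with a median absolute difference of 0.0936. The same count was 23 for T24h A and T24h C, 21 for T24h B and T24h C, 33 for T24h A and T24h B, and at most 52 for any other pair. C24h B and T24h C can therefore not be counted as independent libraries. The paper also saw C24h of sampling B cluster with treated fruit, and named a slightly raised ethylene yield of that sampling as the probable reason. Why these 2 libraries are so alike was not tested here. C24h B stayed in the limma fit, where it adds to the residual spread of every comparison. The rule left C24h B out, and with C24h B added to it 58 of the 75 genes met it.

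**Figure D1:**
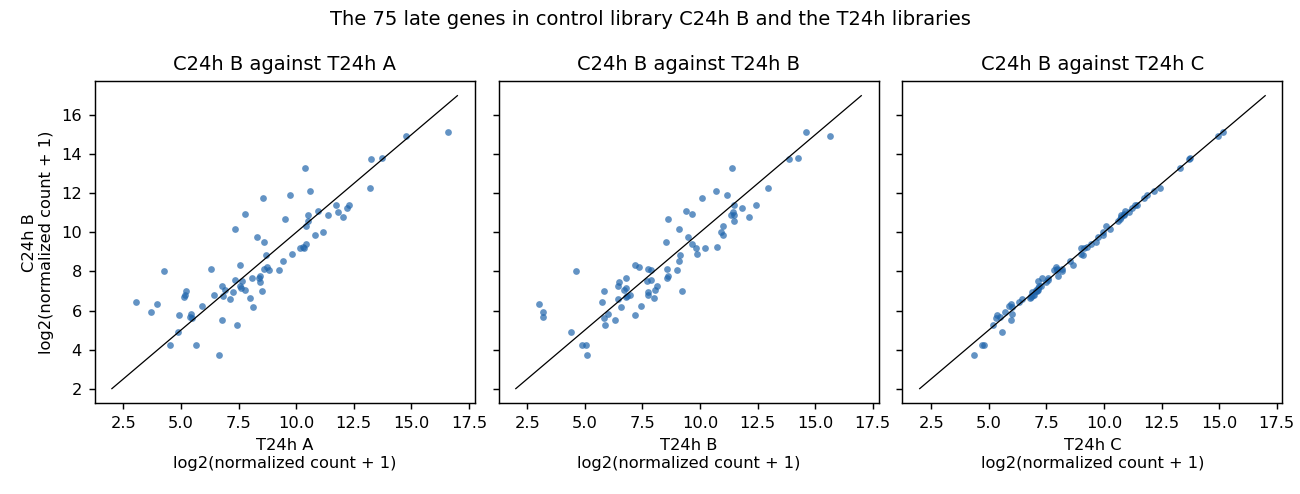
Log2(normalized count + 1) of the 75 late genes in C24h B (y axis) against T24h A, T24h B and T24h C (x axes), with 1 point per gene and the line of equality. In the right panel 72 of the 75 points lie within 0.5 of the line, while T24h A and T24h B scatter widely around it.

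Most of the late genes were higher in T24h than in C12h, while T12h lay on either side of C12h. The control library C24h B stood with T24h. The median T24h minus T12h difference was 1.86 on the log2 scale (range 1.52 to 5.44), the T24h minus C0h difference 2.15 (1.05 to 8.005), and the T24h minus C24h A and C difference 2.30 (1.01 to 8.38). These 3 differences chose the genes and are given as a description. Against C12h, which the rule did not use, the median difference was 2.21 for T24h (0.64 to 8.66) and 0.28 for T12h (-1.73 to 6.33), while over the 15270 genes tested the medians were -0.01 in both comparisons. The rule asked for high T24h and low T12h values, so these medians are a description as well. T24h fruit were sampled at 24 h and C12h fruit at 12 h, so in T24h minus C12h ethylene and storage time cannot be told apart. The median C12h minus C0h difference was 0.00046, with single members from -1.22 to 1.65. The libraries are bulk pulp RNA, in which fewer cells of a type and less RNA per cell cannot be told apart.

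**Figure D2:**
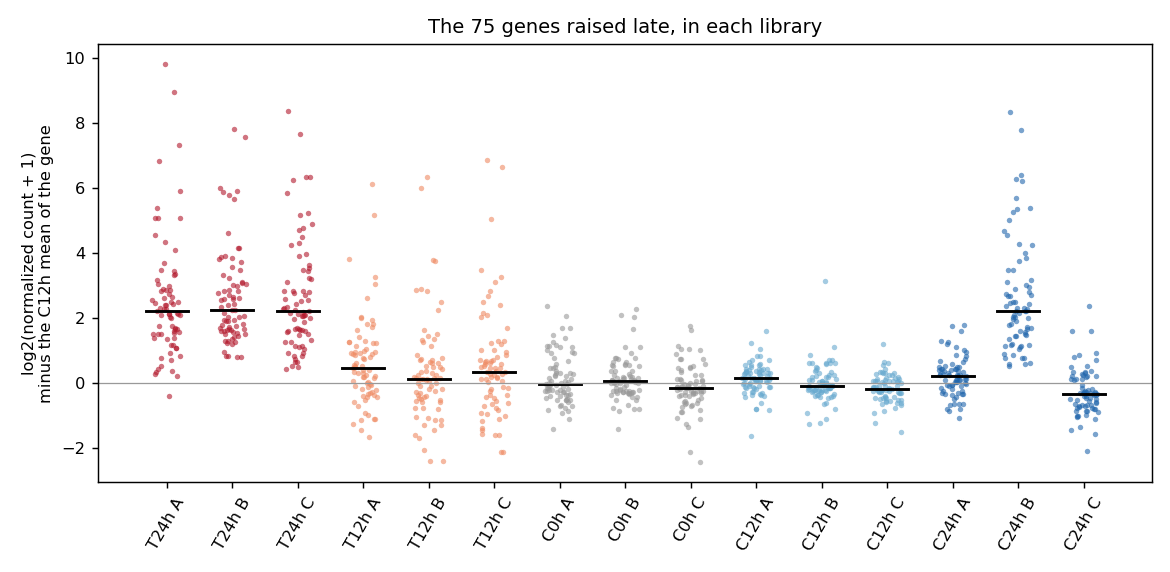
Log2(normalized count + 1) of each of the 75 late genes minus that gene's C12h mean (y axis) in the 15 libraries (x axis), with 1 point per gene and a black line at the median of the library. The T24h libraries sit high, most T12h and control libraries sit near 0, and the control library C24h B sits with T24h.

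In limma, at an adjusted p of at most 0.05, 57 of the 75 were higher in T24h than in C12h, 0 were lower and 18 were not called, against 8.7% of all genes tested that were called higher and 8.89% lower. Of the genes described below, those not called were *VIT1*, *GFAT*, LOC110819370, LOC110813006, LOC110818850, LOC110812800, LOC110809504 and LOC110825144. The T24h libraries lay above every C12h library in 69 members, against 22.2% of all genes, and overlapped C12h in 6. The rule asked for high T24h values, so nothing is read from either count. The count also rested on single libraries. It was 0 without T24h A, 0 without C12h A, 1 without C12h C and 37 without C12h B, and in those 4 fits 14, 0, 8 and 1179 genes of the whole table were called in either direction, against 2687 with all libraries. Without C24h B, 69 members and 4637 genes of the table were called, and without both T24h C and C24h B, 64 members and 3576 genes.

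C24h B lay above every C12h library in 75 of 75 members, against 38.2% of all genes tested. The rule asked for high T24h C values, and C24h B lay close to T24h C, so this count is a description and no test. It lay inside the T24h range in 46 members. Measured against C24h B alone, the median T24h difference was 0.11, and 30 members were higher in C24h B than in the T24h mean.

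*PLP9* (LOC110814795) had 2703, 2824 and 1731 normalized counts in T24h A, B and C, against 275, 20.9 and 25.5 in T12h. It had 261, 191 and 44.9 in C0h, 107, 163 and 86.0 in C12h, and 224, 1867 and 57.3 in C24h A, B and C. All T24h libraries were thus many times above all T12h libraries, and T12h B and C were below every control library. On the log2 scale *PLP9* was 5.44 higher in T24h than in T12h and 4.36 ± 1.11 (SE) higher in T24h than in C12h. The difference between T12h and C12h was -1.09 ± 1.11 (SE). In the reference annotation *PLP9* neighbors 2 other members. LOC110825160 is the next gene, and *FAP1*, whose *Arabidopsis* namesake is a plastid fatty acid-binding protein, lies 3 genes away. LOC110825160 had 9466, 7909 and 5531 normalized counts in T24h, against 2462, 1629 and 1811 in T12h and 978, 1963 and 1050 in C12h. All 3 genes were late, but *PLP9* alone of them lay below all control libraries in 2 of the T12h libraries.

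Of the 75 members, 18 carried a gene symbol and 57 were known by their LOC number alone. Their T24h means ran from 24.0 to 53762 normalized counts, with 22 genes at 1000 or more, 36 between 100 and 1000 and 17 under 100. Without the T24h libraries, 68 still had a mean of at least 10 over the other 12 libraries, and 7 passed the filter only through T24h. Among the 7 were *BRC1* (8.16), LOC110818850 (8.28), LOC110822698 (7.99) and LOC110826405 (3.52). The 12 libraries include C24h B, which lay close to T24h C, so the 68 can hold members that passed only through high libraries. For *RNS3*, for example, the mean of 12.6 included 109 in C24h B. The gene nearest inside the limit of 1.5 was LOC110812800 (1.52), followed by *CAC2* (1.53) and LOC110813749 (1.55), and those nearest outside were LOC110823123 (1.49), LOC110821536 (1.48) and LOC110818211 (1.47). The limit therefore cut through a continuous range of differences.

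A set of 6 enzymes and carriers of the plastid fatty acid route were among the members. *PKP-BETA1* (LOC110823474), a subunit of the plastid pyruvate kinase that supplies pyruvate, had 2308, 1925 and 991 normalized counts in T24h, against 455, 495 and 395 in T12h and 427, 178 and 112 in C12h. *CAC2* (LOC110809829), the biotin carboxylase subunit of the plastid acetyl-CoA carboxylase, had 1808, 2063 and 984 in T24h, against 553, 558 and 493 in T12h and 784, 481 and 447 in C12h. Every T24h library lay above all libraries of the other groups for *CAC2*, where C24h B stood at 943, and above all but C24h B, at 1028, for *PKP-BETA1*.

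*EMB3147* (LOC110823654), whose *Arabidopsis* namesake moves malonyl groups to the acyl carrier protein, had 3590, 2796 and 2193 in T24h, against 1006, 962 and 876 in T12h and 656, 449 and 270 in C12h. *MOD1* (LOC110807389), the enoyl-acyl carrier protein reductase that ends each round of elongation, had 4735, 3622 and 2385 in T24h, against 986, 1184 and 1184 in T12h and 1347, 960 and 960 in C12h. The T12h values of *MOD1* lay within the C12h range, whereas the *EMB3147* values of T12h already lay above all of C12h.

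*LACS9* (LOC110813520), a long-chain acyl-CoA synthetase of the plastid envelope in *Arabidopsis*, had 4132, 4474 and 1692 in T24h, against 792, 618 and 933 in T12h and 546, 430 and 270 in C12h. *FAP1* (LOC110814785) had 332, 382 and 158 in T24h, against 95.8, 101 and 74.4 in T12h and 173, 92.2 and 96.6 in C12h, so that its T24h C value fell within the C12h range. In all 6 of these genes T24h C was the lowest T24h library. Their T24h minus T12h differences ran from 1.53 to 2.03 on the log2 scale.

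The other genes of the route did not all share the late timing. In a list of 20 plastid fatty acid genes that was put together after the values had been seen, the 14 that were not members had a median T24h minus T12h difference of 0.65 (range -0.93 to 1.53), 10 of them above 0 and 4 below. *CAC3*, the carboxyltransferase subunit that works with *CAC2*, came close to membership with 1858, 1932 and 1025 normalized counts in T24h, against 675, 616 and 576 in T12h, a difference of 1.31. *BCCP2*, a further subunit of this carboxylase, passed the limit with a difference of 1.53 and was left out by its low mean, with 18.1, 17.1 and 18.5 in T24h, against 3.34, 10.9 and 4.44 in T12h. *FAP2*, related to *FAP1*, went the other way, with 436, 330 and 424 in T24h, against 663, 762 and 840 in T12h, a difference of -0.93. In a broader list of fatty acid and lipid synthesis genes, 9 of the 29 tested were higher in T24h than in C12h by limma and 0 lower. The shares of all genes tested were 8.7% and 8.89%. In T12h 6 were higher and 2 lower, where the shares of all genes were 11.7% and 12.3%. This list includes *LACS9* and *CAC2*, which the rule chose for high T24h values and which are among the 9. The median of that list was 0.91 for T24h minus C12h, 0.61 for T12h minus C12h and 0.20 for T24h minus T12h.

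**Figure D3:**
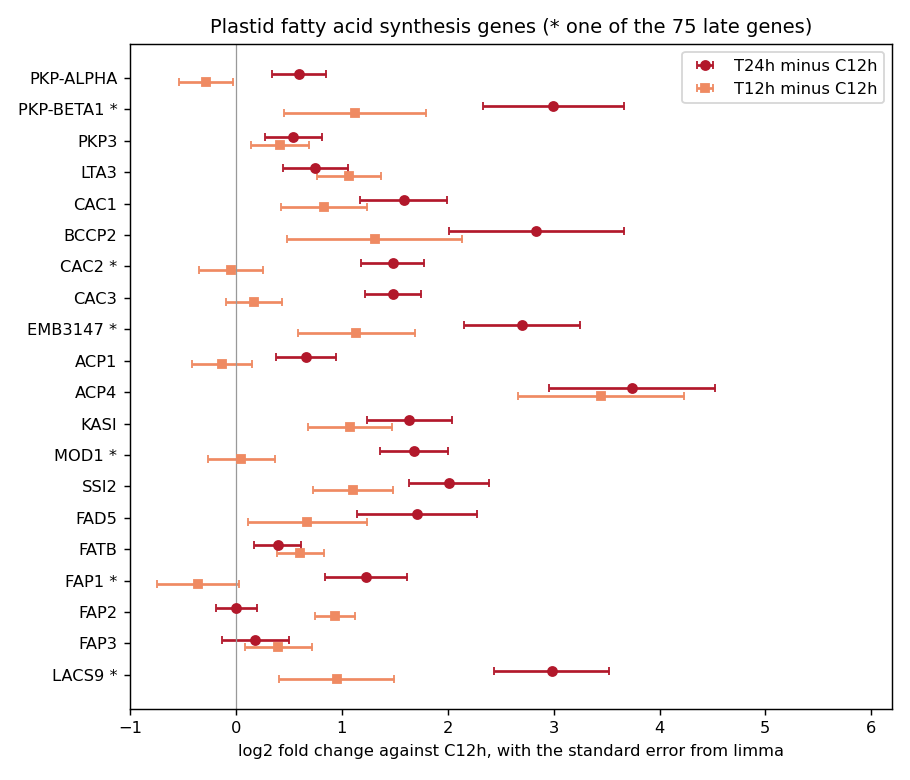
Log2 fold change against C12h with the standard error from limma (x axis) of 20 plastid fatty acid synthesis genes (y axis, in the order of the route), for T24h (red circles) and T12h (orange squares). Asterisks mark the 6 late genes, in which T24h lies well to the right of T12h, while *FAP2* shows the opposite order.

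*RNS3* (LOC110809141), an RNase of the T2 family, had 35.1, 124 and 121 normalized counts in T24h, against 7.80, 0.99 and 11.1 in T12h and 1.79, 0.91 and 0.81 in C12h. *BFN1* (LOC110817904), a nuclease linked to senescence in *Arabidopsis*, had 84.7, 211 and 123 in T24h, against 45.7, 42.7 and 42.2 in T12h and 21.5, 28.3 and 28.4 in C12h. *XCP1* (LOC110826420), a papain-type cysteine peptidase known from xylem, had 33.9, 108 and 112 in T24h, against 16.7, 19.9 and 31.1 in T12h and 8.05, 7.30 and 4.06 in C12h. In these 3 genes the means stood in the order T24h, T12h, C12h, although for *RNS3* T12h B lay within the C12h range. T12h also overlapped other controls, since *RNS3* had 4.58, 8.15 and 0 in C0h and *BFN1* had 43.4 in C24h C. For *XCP1*, C24h A stood at 15.7, just under T12h A.

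*XCP1* stood on the vascular marker list and on the list of laticifer and papain-family genes. The summed level of the 5 laticifer and papain-family genes was 60537 to 67135 normalized counts in T24h, 39775 to 56046 in T12h, 10927 to 23462 in C0h, 8577 to 23153 in C12h and 60456 in C24h B, and none of the 5 was at 0 throughout. The summed level of the 16 vascular markers was 1383 to 6014 in T24h, 6258 to 9145 in T12h, 604 to 987 in C0h, 701 to 1232 in C12h and 4764 in C24h B, with *NST1* at 0 in all libraries. Both sums were higher in T24h and in C24h B than in C12h, and the vascular sum was higher still in T12h. The part of either tissue in the values was not tested.

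Transporters and membrane proteins among the members differed in how evenly the T24h libraries showed them. *OPT6* (LOC110823502), an oligopeptide transporter, had 1148, 1174 and 518 normalized counts in T24h, against 185, 279 and 365 in T12h and 132, 69.4 and 75.5 in C12h. *PHO1;H1* (LOC110824284), of a family that exports phosphate, had 340, 87.5 and 178 in T24h, against 71.3, 58.7 and 47.8 in T12h and 20.6, 51.1 and 47.1 in C12h. Both groups of treated fruit lay above C12h for *OPT6*, but for *PHO1;H1* only T24h lay clear of C12h.

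*MLO15* (LOC110821373), of a family of membrane proteins known from powdery mildew susceptibility, had 161, 536 and 1233 in T24h, against 70.2, 50.7 and 64.4 in T12h and 71.5, 51.1 and 62.5 in C12h. *VIT1* (LOC110823784), a vacuolar iron transporter, had 7.26, 52.3 and 78.4 in T24h, against 3.34, 3.98 and 4.44 in T12h and 6.26, 2.74 and 8.93 in C12h. Its T24h A value was inside the C12h range, so the higher level rested on T24h B and C.

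**Figure D4:**
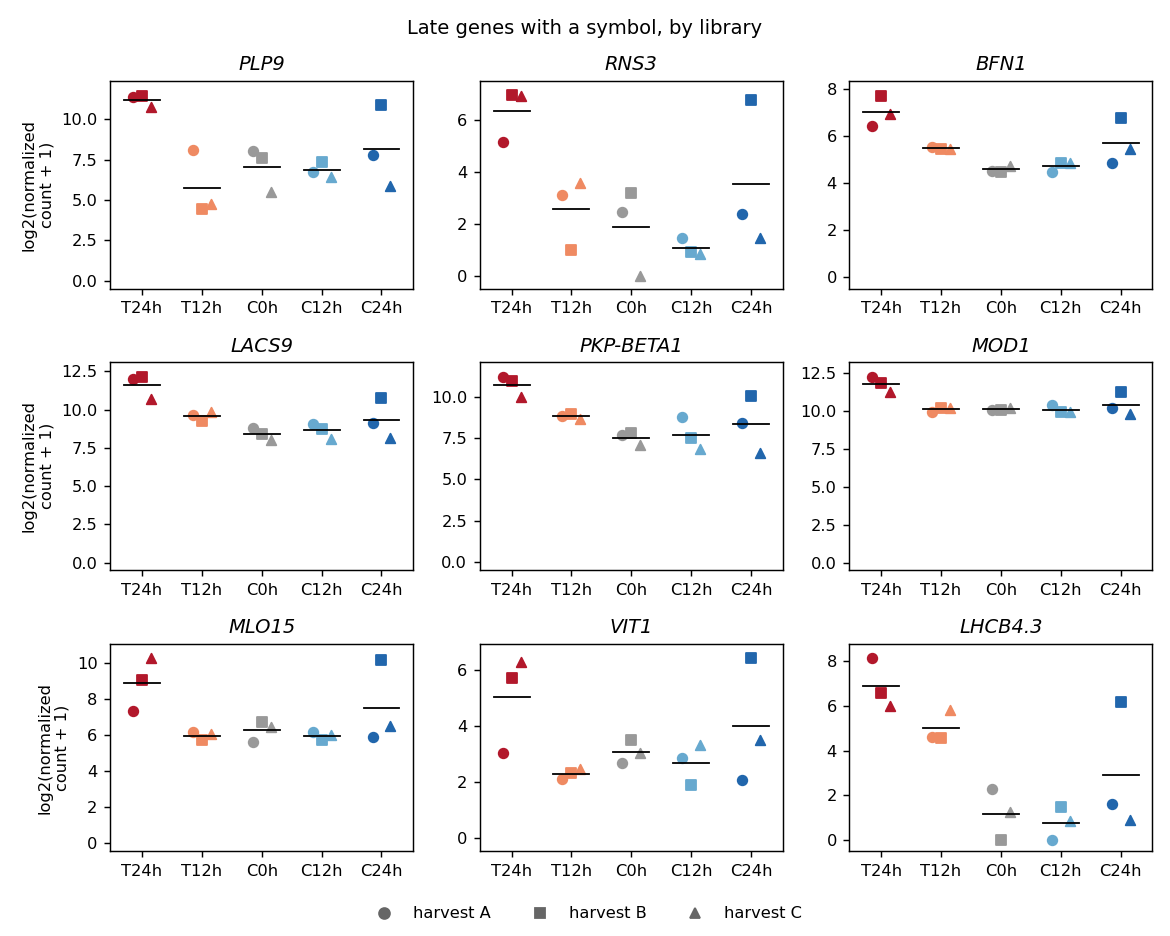
Log2(normalized count + 1) (y axes) of 9 late genes in T24h, T12h, C0h, C12h and C24h (x axes), with circles, squares and triangles for harvests A, B and C and a black line at the group mean. In every panel the square of C24h lies near T24h, and for *MLO15* and *VIT1* T24h A lies far below T24h B and C.

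Among the cell wall families, 3 genes were members. LOC110826405 and LOC110826410, both annotated as xyloglucan endotransglucosylase/hydrolases, which cut and rejoin xyloglucan chains, are neighbors in the reference order. LOC110826405 had 98.0, 33.2 and 19.6 normalized counts in T24h, against 3.34, 2.98 and 6.66 in T12h and 6.26, 0 and 0.81 in C12h. LOC110826410 had 270, 110 and 191 in T24h, against 40.1, 66.6 and 42.2 in T12h and 31.3, 16.4 and 33.3 in C12h. Reads that such neighboring copies share may have been lost or split, since only uniquely aligned reads were kept. Of the 7 genes with this annotation, 5 had a T24h mean above the T12h mean, with differences of -0.80 to 3.01.

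LOC110819370, annotated as an expansin, a protein that loosens the wall, had 1956, 668 and 1931 in T24h, against 534, 132 and 179 in T12h, 874, 425 and 511 in C0h and 293, 263 and 258 in C12h. C0h A thus exceeded T24h B. The 4 expansins split evenly, 2 with T24h above T12h, and their differences ran from -1.61 to 2.54. The study picked these annotated families on the same samples.

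Single members of other roles followed. *LHCB4.3* (LOC110819151), an antenna protein of photosystem II, had 277, 93.6 and 63.4 normalized counts in T24h, against 23.4, 22.9 and 55.5 in T12h and 0, 1.83 and 0.81 in C12h. In the list of green tissue genes that it belongs to, 1 gene was higher and 5 were lower of the 32 tested in T24h against C12h by limma, where the shares of all genes were 8.7% and 8.89%. The summed level of its 40 genes was 4208 to 5188 in T24h, 3449 to 4385 in T12h and 4596 to 6615 in C12h. The gene called higher was *LHCB4.3* itself.

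*BRC1* (LOC110820315), a TCP transcription factor that holds back bud outgrowth in *Arabidopsis*, had 49.6, 32.2 and 26.5 in T24h, against 10.03, 6.96 and 18.9 in T12h and 5.37, 3.65 and 2.44 in C12h. *GFAT* (LOC110816332), which makes glucosamine phosphate for amino sugars, had 78.6, 214 and 286 in T24h, against 76.9, 41.8 and 52.2 in T12h and 38.5, 39.3 and 46.3 in C12h. T24h A and T12h A were nearly level for *GFAT*. *KIN3* (LOC110819023) had 1272, 1706 and 606 in T24h, against 295, 166 and 298 in T12h and 375, 267 and 243 in C12h, and T12h did not stand apart from C12h.

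Where the members stood in T12h, just after the gas, divided them. On the log2 scale 19 were at least 1 higher in T12h than in C12h, 8 were at least 1 lower and 48 lay in between. By limma 5 of the 75 were higher and 4 lower, against 11.7% and 12.3% of all genes tested, and 66 were not called. T12h lay above every C12h library in 24 members, against 26.3% of all genes, below every one in 9, against 26.1%, and overlapped C12h in 42. The rule asked for low T12h values, so these counts describe the members and are no test. The 9 calls became 1 when T12h C was left out, 1 when C12h A was, 2 when C12h C was, 3 and 5 when T12h B and T12h A were, and 19 when C24h B was. In the same order, 1154, 843, 884, 1937, 2799 and 5188 genes of the whole table were called, against 3675 with all libraries.

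**Figure D5:**
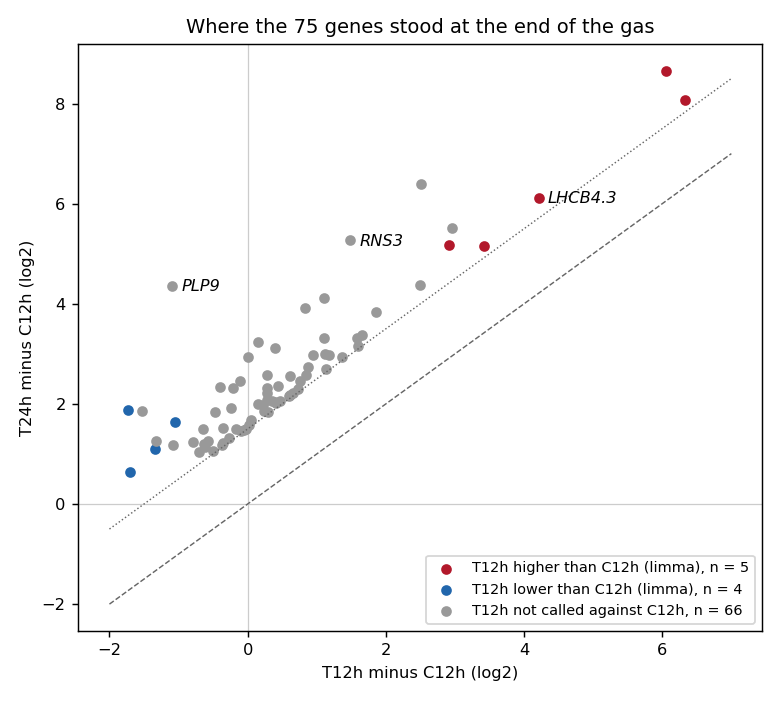
T24h minus C12h (y axis) against T12h minus C12h (x axis), both as log2 fold changes, for the 75 late genes. Red and blue mark the 5 genes higher and the 4 lower in T12h by limma, the dashed line marks equal values, and the dotted line marks the distance of 1.5 that the rule set.

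The 5 genes already called higher in T12h were LOC110807004, LOC110809564, *LHCB4.3*, LOC110807645 and LOC110810171. LOC110807004 was the most abundant member in T24h, with 99916, 24976 and 36393 normalized counts, against 3981, 9078 and 11135 in T12h and 34.9, 981 and 38.2 in C12h. LOC110809564 had 615, 236 and 251 in T24h, against 85.8, 78.5 and 142 in T12h and 0, 0.91 and 0 in C12h. Among the other controls LOC110807004 had 580, 354 and 24.95 in C0h and 373, 36240 and 52.9 in C24h A, B and C, and LOC110809564 had 273 in C24h B. Every T12h library of both genes lay above every control library except C24h B.

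LOC110807645 had 721, 384 and 1640 in T24h, against 176, 290 and 237 in T12h and 20.6, 31.96 and 12.99 in C12h. LOC110810171 had 1382, 2041 and 1099 in T24h, against 248, 291 and 389 in T12h and 30.4, 49.3 and 41.4 in C12h. Neither gene had a treated library within the C12h range.

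The 4 genes called lower in T12h were LOC110821627, LOC110809504, LOC110825144 and LOC110823892. LOC110821627 had 363, 587 and 130 normalized counts in T24h, against 30.1, 14.9 and 31.1 in T12h and 91.2, 109 and 56.0 in C12h. LOC110809504 had 419, 559 and 538 in T24h, against 103, 77.5 and 119 in T12h and 351, 290 and 325 in C12h. Both lay below C12h in T12h and above it in T24h. For LOC110809504 the T24h difference was only 0.64 ± 0.30 (SE) on the log2 scale and was not called (adjusted p 0.131 in limma). LOC110825144 had 42.3, 63.4 and 63.4 in T24h, against 11.1, 9.94 and 7.77 in T12h and 32.2, 21.9 and 23.5 in C12h. LOC110823892 had 160, 236 and 191 in T24h, against 27.9, 28.8 and 30.0 in T12h and 56.3, 55.7 and 73.1 in C12h. For this gene C24h A, at 97.5, also lay above C12h.

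Other members with large differences had no symbol. LOC110818116 had 195, 109 and 138 normalized counts in T24h, against 5.57, 11.9 and 9.996 in T12h and 0, 1.83 and 0.81 in C12h, the second largest T24h minus T12h difference (3.88). LOC110822698 had 108, 77.5 and 62.3 in T24h, against 15.6, 4.97 and 7.77 in T12h and 4.47, 7.30 and 2.44 in C12h. LOC110809026 had 59.3, 172 and 57.7 in T24h, against 33.4, 2.98 and 14.4 in T12h and 9.84, 6.39 and 10.6 in C12h. All 3 were scarce in T12h and C12h, apart from T12h A for LOC110809026.

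The T24h libraries were not equal among themselves. They lay within 2-fold of each other in 32 members and more than 4-fold apart in 17. The highest was A in 23 members, B in 30 and C in 22. T24h C was at least 2-fold above both others in 12 members, among them *MLO15*, and at most 0.5 of both in 6, among them *LACS9*, *FAP1*, *OPT6* and *KIN3*. LOC110813006 had 373, 1101 and 3427 normalized counts in T24h, against 165, 101 and 71.1 in T12h and 726, 145 and 278 in C12h, so that T24h A lay below C12h A. LOC110818850 had 14.5, 7.04 and 62.3 in T24h, against 0, 1.99 and 3.33 in T12h and 0.89, 0.91 and 1.62 in C12h. In both genes C24h B was near T24h C, at 3460 and 80.0. Over all members T24h C minus the mean of T24h A and B ran from -1.82 to 3.74 on the log2 scale, with a median of -0.29.

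When the rule was run again without T24h C and C24h B, 85 genes met it, 56 of them from the 75. Of 7 seed markers, 5 had a mean under 5 and *ABI3* was at 0 in all libraries, and their summed level was 46.3 to 154 in T24h and 57.6 to 274 in C12h. The summed level of 16 peel cuticle markers was 15316 to 16694 in T24h, 14031 to 16406 in T12h, 12964 to 13440 in C12h and 17083 in C24h B. The part of these tissues in the late genes was not tested.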

How the data were processed

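Pulp RNA was measured by stranded mRNA sequencing. The authors aligned the reads with STAR, kept unique alignments and deposited signal values, which are counts per gene scaled by a DESeq2 size factor, and the counting tool is not given in the sources used here. Every value is a whole multiple of what 1 read is worth, which gave back the reads of 13 libraries (100% of values whole within 0.001), while the steps of T12h B and T24h B were too close to 1.

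The 75 genes, the gene lists and the tests were chosen with earlier results of these data known. Genes with a mean of at least 5 (15270) were compared with limma 3.58.1 in R 4.3.3 on log2(value + 1) with a variance trend, all 5 groups in 1 fit, and p-values were adjusted by Benjamini and Hochberg. Named were *PLP9*, the 12 members with the largest T24h minus T12h difference, members with a symbol, on a list or with a cell wall annotation, and the genes around the limit. Symbols came from RefSeq (69 of 75 members matched), whose assembly differs from that of the files, so that only names and gene order were used. Alternatives were other pseudocounts (0.5 and 5), scalings and filters, libraries or harvests left out, a harvest block, and edgeR 4.0.16 and DESeq2 1.42.0 on recovered reads.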

Additional observations from a re-analysis of the deposited data

How the results depend on the processing

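Pseudocounts, scalings and filters changed none of the member counts by more than 1.5 times. The rule gave 70 to 114 genes when single libraries were left out, the most without T24h A (55 of the 75 kept), and 115 without harvest A (53 kept). The 57 members called higher in T24h than in C12h became 0 to 69 with single libraries left out, 0 without harvest A, 0 without harvest C, and 0 in edgeR and 0 in limma on the 13 libraries with recovered reads, which lack T24h B and T12h B, against 54 in DESeq2 on the same libraries. At an unadjusted p of at most 0.05 from the same tests, the members counted were 72 without T24h A, 71 without C12h A, 66 and 57 without harvests A and C, 68 in edgeR, 66 in limma and 63 in DESeq2. The rule asked for high T24h values, and the share of all genes at an unadjusted p was not counted. Nothing is therefore read from these unadjusted counts. Calls were followed over the settings for 30 of the named members. Of these, 24 were called in T24h against C12h, and all 24 lost the call in at least 7 of the settings. Their adjusted p in limma, edgeR or DESeq2 ran from 0.0001493 to 0.2744 over the alternatives. The 9 members called in T12h against C12h became 1 to 19 with single libraries left out, 1 without harvest A, 0 without harvest C (10 at an unadjusted p), 25 with only T12h and C12h in the fit, 23 with library quality weights, 1 in edgeR, 3 in DESeq2 and 3 in limma on the 13 libraries, and 21 without T24h C and C24h B. Over the whole table, T12h calls numbered 3675 with all libraries, 305 without harvest A and 0 without harvest C. They were 5678 with only T12h and C12h in the fit, 6762 with quality weights and 5252 without T24h C and C24h B. On the 13 libraries they were 1578 in edgeR, 3162 in DESeq2 and 1875 in limma. No call of the 30 members followed was reversed. LOC110807004, LOC110809564, LOC110807645, LOC110810171, LOC110809504 and LOC110825144, named for their T12h calls, were not among the 30. C24h B stood above C12h in 75 members with any other single library left out and in 72 after quantile normalization. These counts too are descriptions, since C24h B lay close to T24h C. The fits on 13 libraries with limma and without T24h C and C24h B were chosen after seeing the data.

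The harvest letters pair the libraries by label. Correlations of deviations from the group means had a median of -0.06 over 30 pairs of the same harvest (-0.587 to 0.632). Over 60 pairs of different harvests the median was -0.02. At the median, libraries of 1 harvest thus did not deviate together, although single pairs did. With the harvest as a replicate block, 54 members and 2426 genes of the table were called in T24h, and 9 members and 3527 genes in T12h. With 3 pools per group, values of a few reads, as in the controls of LOC110809564 and LOC110818116, have wide counting error.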
